A study of Mus musculus with 37 samples.

Results

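Cardiac fibroblasts (CFs) were exposed for 24 h to medium conditioned by heart muscle cells that had been given AMP or vehicle, and the RNA of the CFs was counted gene by gene. The comparison used 4 of the 37 samples of the series. These were the 2 libraries labelled AMP conditioned medium, 24 hours, and the 2 labelled as vehicle (NC) medium of the same time. Their labels placed them in the groups, and 16 further CF libraries (ATP, ENPP1 and ENPP1+ATP media at 24 h and all 5 media at 48 h) served only to estimate the spread, so that the fit held 20 libraries in 10 groups of 2. All CFs were an immortalised mouse line of C57BL/6 strain and wild type genotype. The study describes immortalisation of its CF lines with the SV40 antigen, a viral protein known to bind p53 and the retinoblastoma protein. The cells were plated at 20% to 30% confluency in 10% fetal bovine serum, kept for 24 h in serum-free medium with insulin, transferrin and selenium, and then given the myocyte-conditioned medium (MCndM). The donors of the MCndM were neonatal rat ventricular myocytes, so both groups received myocyte products and differed in whether the myocytes had been given AMP. The AMP dose is not given in the sources used here, and the study calls its replicates biological without saying there whether the 2 libraries of a group came from separate cultures of the line, so p-values measure the spread between these samples.

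AMP is what the ectonucleotidase ENPP1 leaves, with pyrophosphate, when it cleaves extracellular ATP, and the enzyme Nt5e (CD73) turns AMP into adenosine. Adenosine acts on G protein-coupled receptors and is taken up by transporters, salvaged to AMP by adenosine kinase or deaminated to inosine, which is broken down to purine bases. Cells that run short of pyrimidine nucleotides are known to stall in DNA replication and to activate p53, a transcription factor whose targets halt the cell cycle (Cdkn1a), feed back on p53 (Mdm2) or promote apoptosis (Bax, Bbc3, Pmaip1). The question the comparison addresses is which programs of the CFs differ at 24 h once the myocytes have been given AMP.

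The 4 libraries held 39808854 and 74110869 counts with AMP MCndM and 115824659 and 42547235 with vehicle MCndM, within the range of 32184799 to 115824659 over all 20 CF libraries. Mitochondrially encoded genes took 3.87% of the counts in AMP replicate 1 and 2.29% to 2.46% in the other 3 libraries, while ribosomal protein genes took 1.49% and 1.63% with AMP and 2.12% and 2.18% with vehicle. Over the 11051 genes averaging a log2 CPM (counts relative to library size, with sizes scaled by TMM factors) of 2 or more, the root mean square log2 difference was 0.184 between the AMP libraries, 0.112 between the vehicle libraries and 0.601 to 0.645 between an AMP and a vehicle library. The AMP replicates thus lay further apart than the vehicle replicates, and both pairs lay much closer than the media did.

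Of 30892 genes in the table, 17879 passed the filter on low counts and were tested. With edgeR's quasi-likelihood test and a Benjamini-Hochberg adjusted p under 0.05, 4525 genes (25.3% of those tested) were called higher and 4912 (27.5%) lower with AMP MCndM, 52.8% in either direction. A further rule of at least a 2-fold change left 1379 higher (7.71%) and 1103 lower (6.17%). Both AMP libraries lay above both vehicle libraries for 36.4% of the genes and below them for 38.4%. The median log2 fold change over all genes tested was -0.0058. Leaving out 1 library in turn gave -0.032 (without AMP replicate 2) to 0.0039 (without vehicle replicate 1), and DESeq2 gave 0.015. With most of the genes called, counts of called members in a gene list are read below against these shares and not on their own. The RNA came from the cells present at 24 h, and in such bulk samples fewer cells of a kind and less RNA per cell cannot be told apart.

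**Figure D1:**
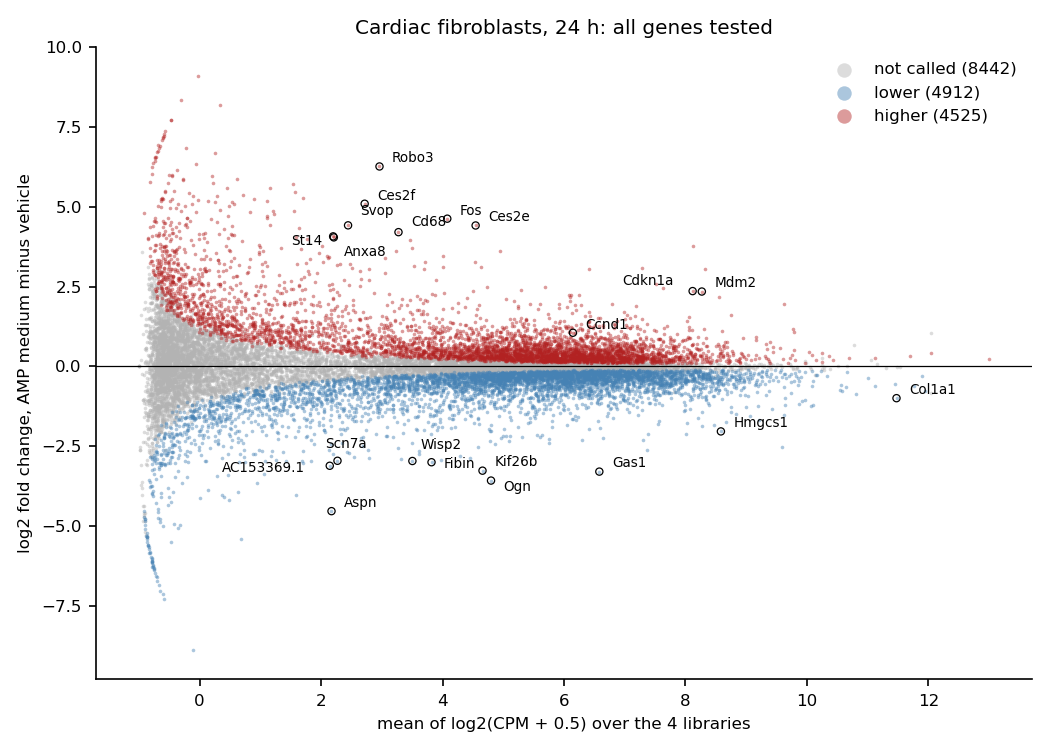
Log2 fold change of AMP over vehicle MCndM (y axis) against the mean of log2(CPM + 0.5) over the 4 libraries (x axis) for the 17879 genes tested, red where called higher (4525), blue where called lower (4912) and grey where not called. Circles mark named genes, from Robo3 at 6.26 to Aspn at -4.53; among the abundant genes, Cdkn1a (2.36) and Mdm2 (2.35) lie above and Col1a1 (-0.99) and Hmgcs1 (-2.03) below the line of no change.

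The direct targets of p53 that halt the cell cycle or feed back on p53 stood among the lists that rose most. Of 45 targets of this kind, 37 were called higher and 4 lower, 24 of them at least 2-fold higher, and their median log2 fold change was 1.06. Cdkn1a, which encodes the cyclin-dependent kinase inhibitor p21, stood at 624 and 631 CPM in the AMP libraries and 115 and 130.4 CPM in the vehicle libraries. It was 5.13-fold higher with AMP MCndM (log2 fold change 2.36 ± 0.14 SE, adjusted p = 3.95e-08). Mdm2, the ubiquitin ligase that degrades p53, read 695 and 693 CPM in the AMP libraries and 133 and 139.8 CPM in the vehicle libraries and was 5.08-fold higher (log2 fold change 2.35 ± 0.069 SE, adjusted p = 1.36e-17). Ccng1, the cyclin G1 gene, another early p53 target, read 817 and 789 CPM in the AMP libraries and 169 and 184 CPM in the vehicle libraries, 4.55-fold higher (log2 fold change 2.18 ± 0.073 SE, adjusted p = 6.28e-16). In each of these genes both AMP libraries lay far above both vehicle libraries, and the replicates of a medium differed by much less than the media.

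Trp53 itself, the mRNA of p53, moved little. It read 256 and 255 CPM in the AMP libraries and 222 and 213 CPM in the vehicle libraries, 1.17-fold higher (adjusted p = 4.62e-05). The 2 largest rises in the list were those of Rprm (reprimo, linked to arrest before mitosis), with 11.6 and 12.2 CPM against 1.19 and 1.56 CPM, and of Btg2, an antiproliferative gene, with 248 and 238 CPM against 27.7 and 31.3 CPM. They were 8.95-fold higher (adjusted p = 7.29e-13) and 8.30-fold higher (adjusted p = 5.89e-14). The 4 members called lower were Sesn1 (-0.84 ± 0.11 on the log2 scale), a regulator of the mTORC1 pathway, the tetraspanin gene Cd82 (-0.80 ± 0.052), Dram1 (-0.48 ± 0.11), a lysosomal membrane protein gene linked to autophagy, and Rfwd2 (-0.47 ± 0.059), which encodes the p53 ubiquitin ligase COP1. Dram1 and Rfwd2 lie outside the rule for named genes and were named after their values were seen. Trp53inp2, Fdxr, Sfn and Tigar, also named after their values were seen, did not pass the test.

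Genes of p53-dependent death were higher more often than lower. Of 18 tested, 11 were called higher and 4 lower, with a median log2 fold change of 0.62. The count of lower members was 2 without AMP replicate 2, without vehicle replicate 1 or without vehicle replicate 2. Pmaip1, which encodes the BH3-only protein NOXA, read 107 and 102 CPM in the AMP libraries and 7.65 and 9.73 CPM in the vehicle libraries. It was 12.3-fold higher (log2 fold change 3.63 ± 0.14 SE, adjusted p = 1.96e-12). Bax, the pore-forming effector of the mitochondrial pathway, read 78.8 and 76.1 CPM against 41.0 and 40.1 CPM and was 1.91-fold higher (adjusted p = 1.27e-11). Bbc3, which encodes PUMA, was 1.57-fold higher, from 24.1 and 22.9 CPM to 34.3 and 39.2 CPM (adjusted p = 2.46e-06). The death receptor gene Fas was 1.56-fold higher (32.7 and 34.1 CPM against 20.9 and 21.9 CPM, adjusted p = 3.76e-07). The groups did not overlap in any of these genes, and both AMP libraries lay above both vehicle libraries for 36.4% of all genes tested.

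Perp, a membrane protein gene of the p53 program, was 15.1-fold higher at a low level, with 3.53 and 2.86 CPM in the AMP libraries and 0.193 and 0.240 CPM in the vehicle libraries (adjusted p = 2.17e-09). Cyfip2, a p53 target that encodes a partner of the actin regulator WAVE, rose from 2.01 and 2.33 to 14.2 and 14.5 CPM, 6.73-fold higher. Of the 4 members called lower, 1 fell by at least 2-fold. This was Trp63, which encodes the p53 relative p63, at a low level (0.316 and 0.157 CPM against 0.709 and 0.697 CPM, log2 fold change -1.62 ± 0.52 SE), and it and Tnfrsf1a (-0.14 ± 0.050), a TNF receptor gene, were named after their values were seen. Tnfrsf25, a death domain receptor gene, read 2.41 and 3.39 CPM against 5.41 and 5.21 CPM (log2 fold change -0.85 ± 0.18 SE). Bid, whose cleaved product links death receptors to mitochondria, read 131 and 122 CPM against 138 and 141 CPM (log2 fold change -0.14 ± 0.048 SE, adjusted p = 0.0156), and over the alternatives tried its adjusted p ran from 0.00525 to 0.238, above 0.05 without AMP replicate 2 and without vehicle replicate 1 among others.

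In the BCL2 family and caspases outside the p53 lists the calls ran both ways, 9 higher and 12 lower of 31 (median -0.03). The median was 0.038 with total-count scaling, 0.030 with the stricter filter and 0.010 after thinning to 1 depth, and leaving out 1 library in turn gave -0.064 (without vehicle replicate 1) to -0.0012 (without vehicle replicate 2). Bcl2l1, which encodes the antiapoptotic BCL-XL, rose 1.92-fold (113 and 117 CPM against 60.3 and 59.2 CPM, adjusted p = 9.36e-14), whereas Bcl2 itself was 1.66-fold lower (12.6 and 11.5 CPM against 19.8 and 20.2 CPM, adjusted p = 1.22e-06). Mcl1, a short-lived antiapoptotic member, was 1.16-fold higher (log2 fold change 0.21 ± 0.043 SE). Bak1, the partner effector of Bax, read 167 and 185 CPM against 173 and 172 CPM, and the groups overlapped (adjusted p = 0.674). The largest falls in the list were those of Bmf, a BH3-only gene, with 3.09 and 3.5 CPM against 15.6 and 13.1 CPM (log2 fold change -2.11 ± 0.13 SE), and of Casp12 (log2 fold change -1.24 ± 0.078 SE). Dffb, the nuclease that cuts DNA in apoptosis, was 2.02-fold higher at 9.19 and 9.60 CPM.

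To show the sequences at these genes, the 250 bases before the annotated start of each gene were searched on both strands for short motifs, with promoters from the RefSeq table of build GRCm38.p6. Of the 17879 genes tested, 11493 had an entry. The p53 consensus decamer was found before 13 of the 38 arrest and feedback targets with an entry (34.2%) and before 7.29% of all genes with one. It was found before 2 of 13 death effectors (15.4%) and before 2 of 27 genes of the BCL2 and caspase list (7.41%). The arrest list was typed as known p53 targets, so its share describes the list and is no test. Lists not typed as p53 targets varied too, from 0 of 24 collagen genes to 7 of 40 interferon-stimulated genes (17.5%) and 5 of 23 cholesterol genes (21.7%). The Ccng1 (chr11:40755287-40755536, minus strand) and Bax (chr7:45466899-45467148, minus strand) promoters each held a match, at bases 185 to 176 and 201 to 192 before the start. They are shown because both genes rose, and the capitals mark the decamer.
Ccng1: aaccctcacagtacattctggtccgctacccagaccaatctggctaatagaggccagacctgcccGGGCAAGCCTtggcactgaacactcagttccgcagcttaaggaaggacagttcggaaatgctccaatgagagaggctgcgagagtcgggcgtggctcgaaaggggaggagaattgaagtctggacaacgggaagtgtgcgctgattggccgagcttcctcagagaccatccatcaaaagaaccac
Bax: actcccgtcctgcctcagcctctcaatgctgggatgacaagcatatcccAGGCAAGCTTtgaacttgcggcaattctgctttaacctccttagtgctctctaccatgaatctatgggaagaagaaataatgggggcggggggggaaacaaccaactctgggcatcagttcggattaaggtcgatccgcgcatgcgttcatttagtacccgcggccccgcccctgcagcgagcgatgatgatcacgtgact

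Genes of mitosis and cytokinesis were higher in most cases. Of 79 genes of mitosis and cytokinesis, 77 were called higher with AMP MCndM, 20 of them at least 2-fold, 1 was called lower and 1 was not called, and their median log2 fold change was 0.80. Mki67, which encodes the proliferation antigen Ki-67, read 1676 and 1432 CPM in the AMP libraries and 416 and 389.7 CPM in the vehicle libraries. It was 3.85-fold higher (log2 fold change 1.95 ± 0.070 SE, adjusted p = 4.76e-16). Cenpn, a centromere protein gene, was 3.66-fold higher (142 and 111 CPM against 35.5 and 33.5 CPM, adjusted p = 2.37e-15). The changes of 3 genes of entry into and passage through mitosis were smaller than that of Mki67. Ccnb1, cyclin B1, was 1.5-fold higher (173 and 169.6 CPM against 113 and 115 CPM), its kinase Cdk1 1.14-fold higher (156 and 167 CPM against 139.9 and 143 CPM) and Plk1, a kinase of spindle assembly, 1.52-fold higher (144 and 136 CPM against 95.9 and 87.8 CPM). Lmnb1, which encodes the nuclear envelope protein lamin B1, was the member called lower (128 and 138 CPM against 160.3 and 159 CPM, log2 fold change -0.26 ± 0.049 SE). Fzr1, an activator of the anaphase-promoting complex, was the member not called, and it was named after its value was seen (0.00 ± 0.059).

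The CCAAT box (CCAAT) was found before 44 of 65 mitosis genes with a promoter entry (67.7%) and before 40.0% of all genes, and the cell cycle homology region (TTTGAA) before 23 of them (35.4%) and before 12.8% of all genes. Shares among all genes called higher were 41.6% and 13.1%, close to those of all genes. Cdk1 (chr10:69352913-69353162, minus strand) and Cdc20 (chr4:118437344-118437593, minus strand; an activator of the anaphase-promoting complex) held both motifs, which are in capitals, with CCAAT shown as ATTGG where it was on the opposite strand.
Cdk1: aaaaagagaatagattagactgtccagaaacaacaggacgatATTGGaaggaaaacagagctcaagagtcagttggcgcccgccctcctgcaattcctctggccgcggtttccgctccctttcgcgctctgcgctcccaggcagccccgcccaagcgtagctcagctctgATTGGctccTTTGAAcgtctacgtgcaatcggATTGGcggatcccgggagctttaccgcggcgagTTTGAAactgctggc
Cdc20: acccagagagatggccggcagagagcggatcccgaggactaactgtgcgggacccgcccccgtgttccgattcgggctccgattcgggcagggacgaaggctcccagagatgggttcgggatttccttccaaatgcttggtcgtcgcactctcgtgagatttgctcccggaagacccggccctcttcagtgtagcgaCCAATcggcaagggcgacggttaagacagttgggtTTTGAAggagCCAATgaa

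In the G1 list, 14 of 36 members were called higher and 11 lower (median 0.06, 0.018 without AMP replicate 1, 0.034 without vehicle replicate 2, 0.089 without AMP replicate 2 and 0.13 with total-count scaling). Ccnd1, cyclin D1, which carries mitogen signals into the cycle, stood at 101 and 101 CPM in the AMP libraries and 46.4 and 51.4 CPM in the vehicle libraries. It was 2.08-fold higher (log2 fold change 1.05 ± 0.077 SE, adjusted p = 5.42e-11). The cyclin E genes that act at the start of S phase were also higher, Ccne1 1.51-fold (39.9 and 39.7 CPM against 26.5 and 26.3 CPM) and Ccne2 1.54-fold (68.0 and 54.2 CPM against 37.5 and 42.1 CPM), with the AMP replicates of Ccne2 further apart than its vehicle replicates. E2f1, an activator of S phase genes, was 1.36-fold higher (adjusted p = 1.39e-06). The largest rises were those of E2f8 (148 and 129 CPM against 52.4 and 50.9 CPM, 2.67-fold) and E2f7 (136 and 125 CPM against 56.2 and 54.7 CPM, 2.35-fold), which encode atypical E2F repressors. Myc was 1.37-fold lower (64.9 and 65.7 CPM against 91.4 and 87.4 CPM, adjusted p = 2.80e-06). The inhibitor genes Cdkn1c (p57) and Cdkn2b (p15) were 2.91-fold lower and 2.53-fold lower, opposite in direction to Cdkn1a. The annotated exons of Cdkn1c overlap those of another gene over 30.7% of their length, so reads may have been split there.

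Of 54 replication genes, 36 were called higher and 8 lower (median 0.35). The rises were uneven within the machinery. Cdc6, which loads the replicative helicase, was 1.70-fold higher (124 and 114 CPM against 70.9 and 69.1 CPM, adjusted p = 2.52e-11), and Clspn, which carries the replication checkpoint signal from ATR to CHK1, 2.48-fold higher (188 and 169 CPM against 71.4 and 72.7 CPM, adjusted p = 5.91e-16). Ctc1, part of the complex that helps fill in telomere ends, was 2.5-fold higher, at 178 and 177 CPM against 71.1 and 71.0 CPM. Pcna, the sliding clamp and a p53 target as well, was 1.13-fold higher (467 and 441 CPM against 401 and 399.6 CPM). Mcm2, a helicase subunit, read 416 and 426 CPM against 444 and 446 CPM and did not pass the test (adjusted p = 0.117), although both AMP libraries lay below both vehicle libraries. The largest falls were those of Pold2 (log2 fold change -0.51 ± 0.056 SE), a subunit of polymerase delta, and Rpa3 (log2 fold change -0.41 ± 0.083 SE), a subunit of the single-strand binding complex RPA. An E2F site (TTTCCCGC or TTTGGCGC) was found before 15.9% of the 44 replication genes with a promoter entry and before 2.71% of all genes. It was also found before 6 of 28 genes of the G1 list (21.4%) and 0 of 24 collagen genes.

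Replication-dependent histone genes encode the bulk histones of S phase, and their mature mRNAs end in a stem-loop in place of a poly(A) tail. How the RNA was selected for the libraries is not given in the sources used here. Of 54 tested, 21 were called higher, 18 of them at least 2-fold, and 3 lower (median 0.84, and 0.50 without AMP replicate 1). The count called higher was 10 without vehicle replicate 1, so this count rests in part on that library, the deepest of the 4. Hist1h2be read 13.8 and 13 CPM against 2.46 and 2.19 CPM (log2 fold change 2.51 ± 0.19 SE, adjusted p = 2.73e-11) and Hist1h1e 11.2 and 9.90 CPM against 2.69 and 3.94 CPM (log2 fold change 1.70 ± 0.29 SE). Hist1h1c, a linker histone gene, went the other way (43.4 and 49.8 CPM against 87.5 and 83.7 CPM, log2 fold change -0.87 ± 0.12 SE, adjusted p = 1.46e-05). Hist1h4h stood near 1 CPM in every library and was not called (adjusted p = 0.586). Most members lay under 5 CPM, copies of these genes are nearly identical, and the exons of Hist1h1e overlap those of Hist1h2be over 25.7% of their length, so the values of single copies are uncertain.

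**Figure D2:**
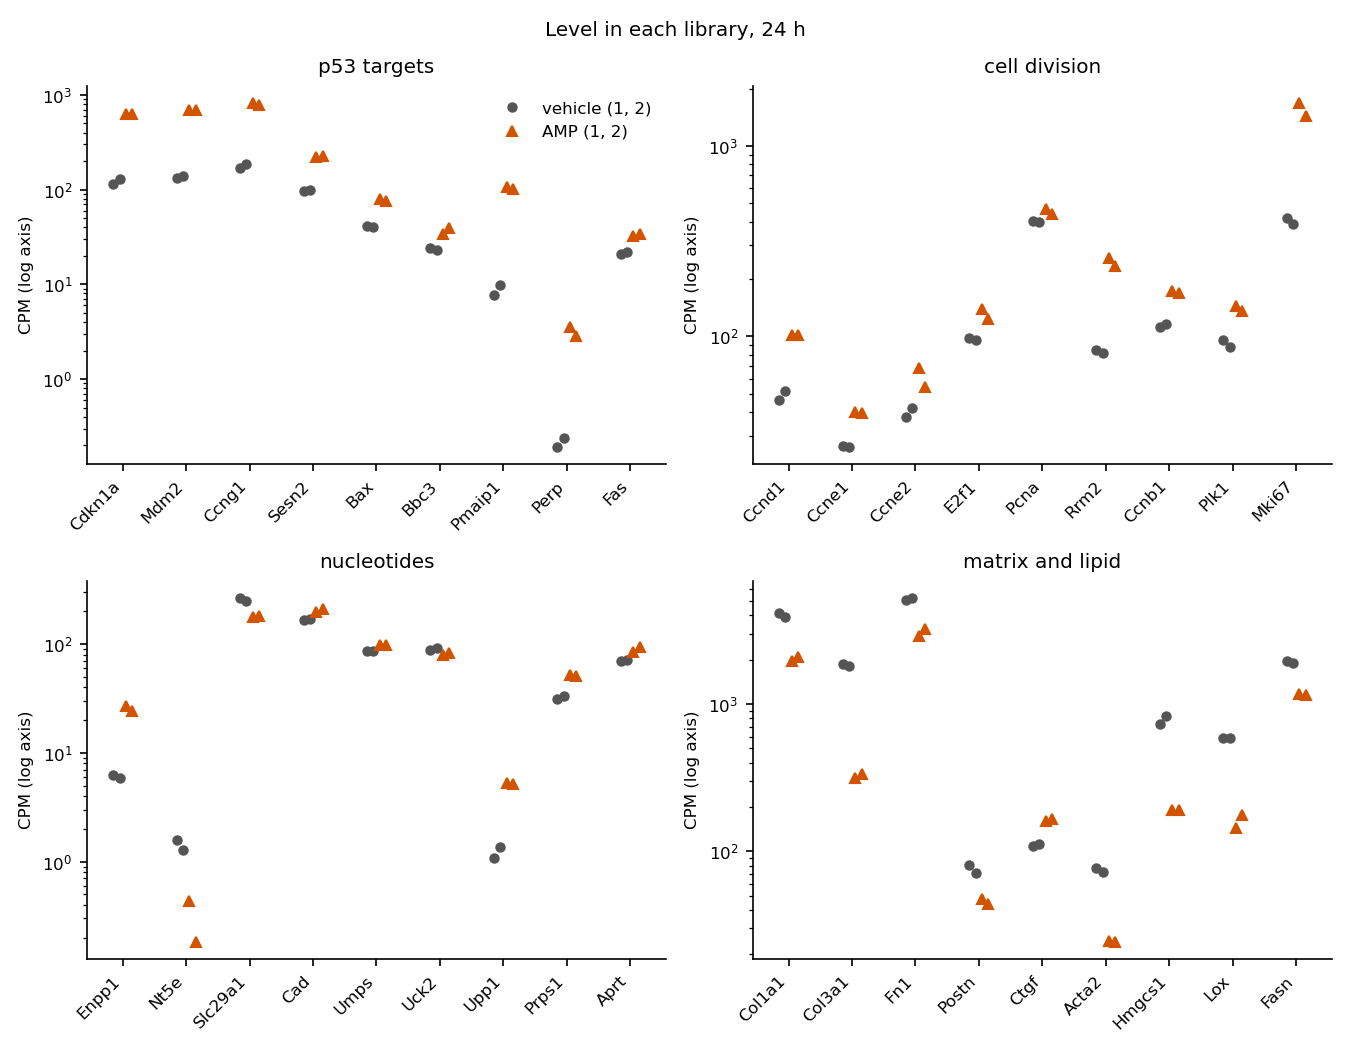
CPM (y axis, log scale) in each of the 4 libraries for 9 genes each of p53 targets, cell division, nucleotide metabolism, and matrix and lipid synthesis, 36 in all; grey circles are the vehicle libraries 1 and 2 and orange triangles the AMP libraries 1 and 2, with no averaging. The genes were picked for the plot, and the groups do not overlap in any of them. Over all genes tested, both AMP libraries lay above both vehicle libraries for 36.4% and below them for 38.4%. The gap is widest for Perp and Pmaip1 among the p53 targets, Mki67 in cell division, Nt5e, Enpp1 and Upp1 in nucleotide metabolism and Col3a1 in matrix.

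DNA damage signalling and repair genes leaned the same way as replication genes, with 46 of 77 called higher and 11 lower (median 0.32). Mdc1, the scaffold that binds phosphorylated histone H2AX at breaks, read 803 and 696 CPM in the AMP libraries and 245 and 247 CPM in the vehicle libraries. It was 3.04-fold higher (log2 fold change 1.61 ± 0.059 SE, adjusted p = 9.55e-17). H2afx, the gene of histone H2AX itself, was 1.82-fold higher (276 and 239 CPM against 144 and 138 CPM). Mgmt, which removes alkyl groups from guanine, was 3.01-fold higher.

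The apical kinase genes Atm and Atr were not called in the main fit. Without AMP replicate 2 Atm was called lower, with a log2 fold change of -0.21 against -0.095 in the main fit. Atm read 104 and 122 CPM against 119 and 123 CPM and Atr 27.5 and 27.3 CPM against 26.2 and 28.4 CPM, both with overlapping groups (adjusted p = 0.253 and 0.937). Chek1, the checkpoint kinase under ATR, was 1.13-fold higher (37.5 and 32.3 CPM against 30.2 and 31.1 CPM, adjusted p = 0.0314), a call lost without AMP replicate 1, without either vehicle library and in the fit of the 4 libraries alone, with adjusted p from 0.00242 to 0.426 over the alternatives. Apex1, the abasic site endonuclease, was 2.34-fold lower (69.7 and 68.5 CPM against 158 and 166 CPM), with the exons of another gene over 61.7% of its annotated length. Prkdc, which encodes the DNA-PK catalytic subunit of end joining, was 1.97-fold lower (20.0 and 25.3 CPM against 44.9 and 44.8 CPM, adjusted p = 2.87e-08).

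Nucleotide metabolism was described in 4 lists, since AMP is itself a nucleotide. None moved as a block. In pyrimidine synthesis and salvage, 7 of 26 members were called higher and 11 lower (median -0.14, -0.22 without AMP replicate 2 and -0.064 with total-count scaling). The de novo pathway runs from Cad through Dhodh to Umps, and its enzymes differed. Cad, which carries the first 3 steps, was 1.22-fold higher (197 and 210.3 CPM against 165 and 168 CPM, adjusted p = 2.47e-04). Dhodh, the mitochondrial dehydrogenase, was 1.52-fold lower (10.7 and 12.6 CPM against 16.8 and 19.2 CPM, adjusted p = 1.71e-04). Umps, which makes UMP from orotate and PRPP, was 1.13-fold higher (98.6 and 97.9 CPM against 86.7 and 86.8 CPM, adjusted p = 0.00246, and 5.31e-05 to 0.0629 over the alternatives, above 0.05 with no filter on low counts).

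In salvage, Uck2, which phosphorylates uridine and cytidine, was 1.12-fold lower (79.1 and 82.8 CPM against 88.6 and 92.3 CPM, adjusted p = 0.0157), a call lost without AMP replicate 1, without vehicle replicate 2 and with total-count scaling (adjusted p 0.00393 to 0.166 over the alternatives). Among the catabolic genes, Upp1 and Dpyd rose by more than 2-fold. Upp1, uridine phosphorylase, read 5.28 and 5.20 CPM in the AMP libraries and 1.08 and 1.37 CPM in the vehicle libraries, 4.36-fold higher (log2 fold change 2.12 ± 0.24 SE, adjusted p = 4.16e-08). Dpyd, which begins the breakdown of uracil and thymine, was 2.31-fold higher, from 2.38 and 2.26 to 5.74 and 5.06 CPM. Nme4, a mitochondrial nucleoside diphosphate kinase gene, was 1.52-fold higher. Nt5c3, a pyrimidine nucleotidase gene, and Uprt, a gene related to uracil phosphoribosyltransferases, were 1.71-fold lower and 1.66-fold lower.

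The PRPP and purine list held 11 members called higher and 13 lower of 36, with a median of -0.01 whose sign turned with DESeq2, with RLE and total-count scaling and without vehicle replicate 2. Leaving out 1 library in turn gave -0.047 (without vehicle replicate 1) to 0.036 (without vehicle replicate 2). The synthetases that make PRPP, the sugar phosphate used by both purine and pyrimidine synthesis, were higher. Prps1 read 51.9 and 50.5 CPM in the AMP libraries and 31.2 and 33.4 CPM in the vehicle libraries, 1.59-fold higher (log2 fold change 0.67 ± 0.065 SE, adjusted p = 4.22e-09), and Prps2 119 and 113 CPM against 75.9 and 82.2 CPM, 1.47-fold higher. The salvage transferases that use PRPP rose as well, Aprt (adenine) 1.27-fold (85.1 and 93.8 CPM against 69.5 and 71.5 CPM) and Hprt (hypoxanthine and guanine) 1.40-fold (78.2 and 79.3 CPM against 54.0 and 58.8 CPM). Ppat, the first committed enzyme of purine synthesis, read 52.0 and 47.8 CPM against 47.5 and 51.1 CPM, with overlapping groups (adjusted p = 0.818).

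Named enzymes of adenosine and related purines differed in direction. Adk, which salvages adenosine to AMP, was 1.35-fold lower (52.7 and 56.5 CPM against 73.4 and 74.0 CPM, adjusted p = 9.46e-07). Pnp, which splits inosine, was 1.86-fold lower (120.5 and 137 CPM against 229.8 and 251 CPM, adjusted p = 9.08e-10), and Mtap, which frees adenine from methylthioadenosine, 1.88-fold lower (79.0 and 77.0 CPM against 144 and 149 CPM). Ada, which deaminates adenosine and was named after its value was seen, was higher (0.52 ± 0.070 on the log2 scale). Ak1, which interconverts AMP, ADP and ATP, was 2.16-fold higher (171 and 187 CPM against 84.7 and 81.1 CPM, adjusted p = 2.47e-13).

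At the cell surface, the fibroblasts' own Enpp1 stood at 27.2 and 24.0 CPM in the AMP libraries and 6.23 and 5.81 CPM in the vehicle libraries. It was 4.22-fold higher (log2 fold change 2.08 ± 0.14 SE, adjusted p = 4.61e-12), with both AMP libraries well above both vehicle libraries. Nt5e, the enzyme that takes AMP to adenosine, was low in both groups and 4.92-fold lower with AMP MCndM (0.438 and 0.183 CPM against 1.57 and 1.27 CPM, log2 fold change -2.30 ± 0.42 SE). Slc29a1, the main equilibrative adenosine transporter ENT1, was 1.44-fold lower (176 and 181 CPM against 264 and 248 CPM, adjusted p = 1.85e-09). Adora2b, an adenosine receptor, was 2.45-fold lower (1.02 and 0.824 CPM against 2.03 and 2.47 CPM, adjusted p = 5.78e-04), whereas P2rx7, an ATP-gated channel, was 2.77-fold higher (52.9 and 60.8 CPM against 20.4 and 20.7 CPM). Enpp3, a relative of Enpp1, was 2.91-fold lower. Over the whole list of 25 tested genes, 7 were called higher and 7 lower.

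Deoxynucleotide supply genes went both ways, with 7 of 20 called higher and 8 lower (median -0.05, -0.031 without AMP replicate 1 and 0.018 with total-count scaling). Rrm2, the regulated subunit of ribonucleotide reductase, read 258 and 235 CPM in the AMP libraries and 84.4 and 82.0 CPM in the vehicle libraries. It was 2.96-fold higher (log2 fold change 1.56 ± 0.065 SE, adjusted p = 1.01e-15). Its partner Rrm1 was 1.34-fold higher (455 and 433 CPM against 333 and 331 CPM), and Tyms (thymidylate synthase) and Dck (deoxycytidine kinase) were 1.25-fold higher and 1.46-fold higher. Tk1, thymidine kinase, read 113 and 107 CPM against 115 and 111 CPM (adjusted p = 0.574). The mitochondrial folate genes Mthfd1l and Mthfd2l were 2.09-fold lower and 2.19-fold lower.

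**Figure D3:**
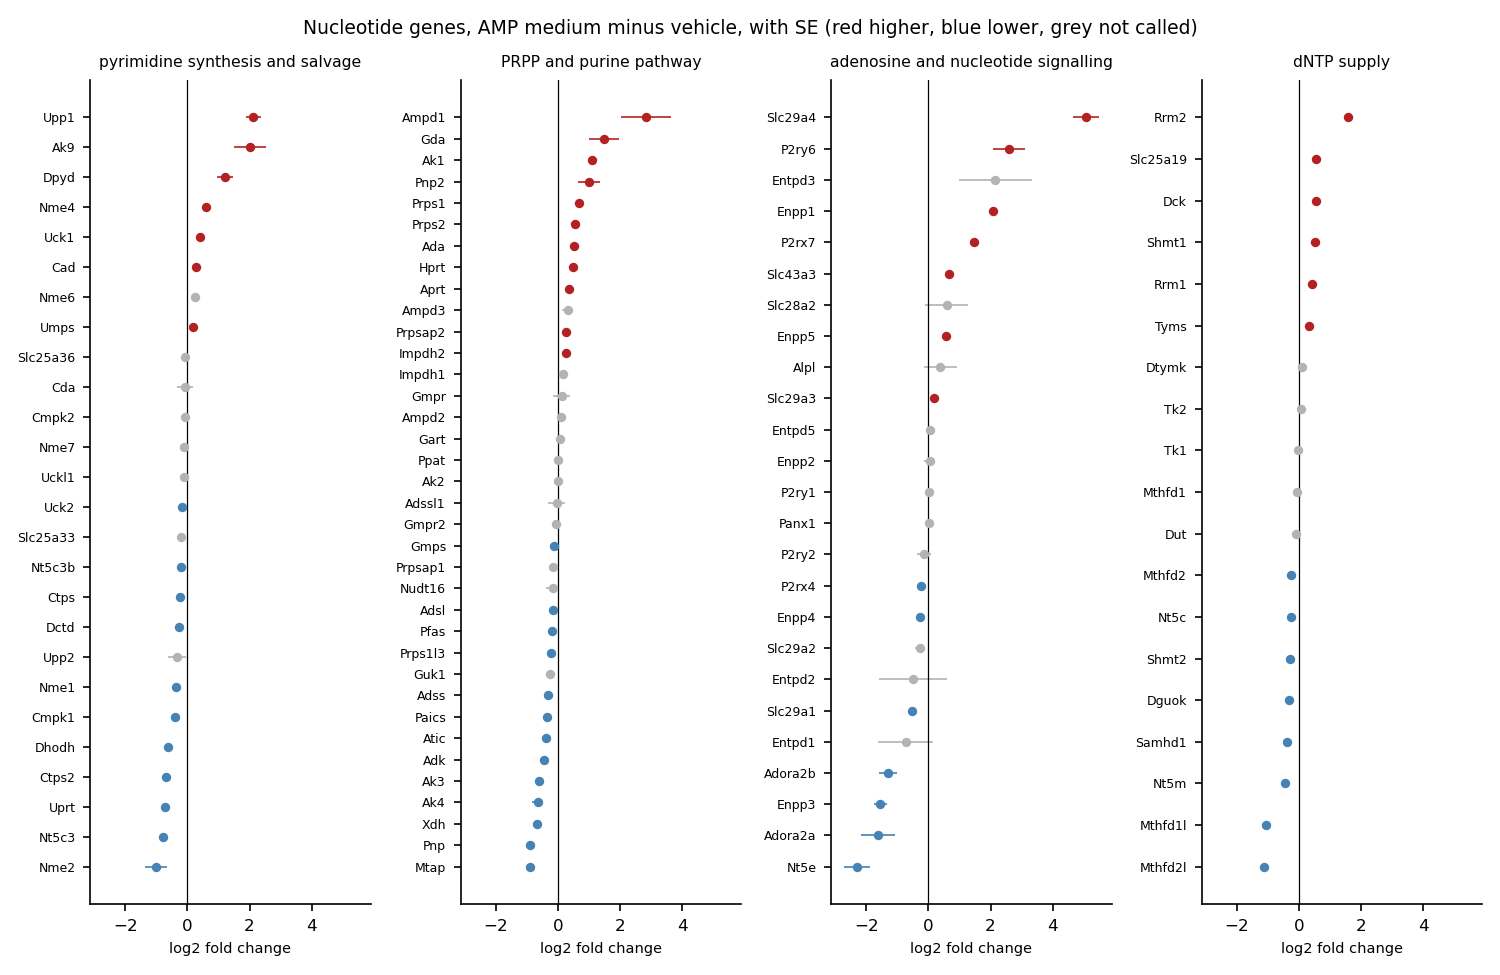
Log2 fold change of AMP over vehicle MCndM (x axis) with its SE (bars) for tested members of the 4 nucleotide lists, ordered by value; red is called higher, blue called lower and grey not called. Rises and falls stand side by side in each list, with Upp1 (2.12), Prps1 (0.67), Enpp1 (2.08) and Rrm2 (1.56) to the right and Dhodh (-0.61), Adk (-0.43), Nt5e (-2.30) and Mthfd2l (-1.13) to the left.

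Immediate early genes, the transcription factors and feedback phosphatases that growth factors and stress induce within minutes to hours, had the highest median of the 36 lists outside the cell type markers, 1.22. Of 33 tested, 26 were called higher, 18 of them at least 2-fold, and 4 lower. Fos, a subunit of the AP-1 factor, read 85.5 and 69.0 CPM in the AMP libraries and 2.87 and 3.53 CPM in the vehicle libraries. It was 24.7-fold higher (log2 fold change 4.63 ± 0.15 SE, adjusted p = 2.71e-17), among the largest changes of all genes. Its partner Jun was 5.97-fold higher (494 and 396 CPM against 74.2 and 74.7 CPM, adjusted p = 1.28e-17) and the zinc finger gene Egr1 13.5-fold higher (1115 and 941 CPM against 77.6 and 74.3 CPM, adjusted p = 1.43e-08). The replicates with AMP MCndM differed more than those with vehicle in these genes, by less than the difference between media. The members called lower were Spry1 (15.1 and 14.4 CPM against 68.2 and 64.4 CPM), an inhibitor of receptor tyrosine kinase signalling, its relative Spry2 (-0.56 ± 0.071, named after its value was seen), Fosl2 (83.1 and 97.7 CPM against 167 and 164 CPM), another AP-1 subunit, and Myc.

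The core of the cAMP response element (TGACG), a motif added after the data were seen, was found before 14 of the 25 immediate early genes with a promoter entry (56.0%) and before 29.4% of all genes. Other lists varied, from 3 of 32 matrix glycoprotein and proteoglycan genes (9.38%) to 27 of 61 cytosolic ribosomal protein genes (44.3%). The CArG box, the motif of the serum response factor, added likewise, was found before 3 of the 25 immediate early genes (12%) and before 1.40% of all genes. It was also found before 4 of 31 myofibroblast and contractile genes (12.9%), 2 of 15 cardiomyocyte markers (13.3%) and 0 of 24 collagen genes. The Fos promoter (chr12:85473640-85473889, plus strand) held TGACG at bases 129 to 125 and 66 to 62 before the start, in capitals, and is shown because Fos changed most in its list.
Fos: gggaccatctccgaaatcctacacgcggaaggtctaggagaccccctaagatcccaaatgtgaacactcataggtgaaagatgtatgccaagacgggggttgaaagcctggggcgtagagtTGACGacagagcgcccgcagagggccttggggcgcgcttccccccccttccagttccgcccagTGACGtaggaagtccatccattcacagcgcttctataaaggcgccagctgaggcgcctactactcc

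Lipid synthesis fell broadly. Of 33 genes of cholesterol synthesis and uptake, 29 were called lower and 2 higher, with a median log2 fold change of -0.83. These genes are known targets of the transcription factor SREBP2 when sterols run low. Hmgcs1, which makes the HMG-CoA of the pathway, read 189.6 and 189 CPM in the AMP libraries and 726 and 826 CPM in the vehicle libraries. It was 4.10-fold lower (log2 fold change -2.03 ± 0.062 SE, adjusted p = 5.47e-18). Srebf2, which encodes SREBP2, was itself 1.52-fold lower (459.9 and 486 CPM against 713 and 727 CPM). The largest fall was that of Tm7sf2, a sterol reductase gene, 5.01-fold lower (15.2 and 14.7 CPM against 71.6 and 78.3 CPM, adjusted p = 1.31e-16). Both members called higher act on sterol handling. Scap, the escort protein of SREBP, was 1.22-fold higher and Npc1, the exporter of lysosomal cholesterol, 1.22-fold higher.

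Before 20 of the 23 cholesterol genes with a promoter entry (87.0%) a CCAAT box was found, against 40.0% of all genes. An E box (CACGTG) was found before 6 of them (26.1%) and before 9.48% of all genes. A sterol site (TCACNCCAC, also added after the data were seen) was found before 1.32% of all genes. Other lists varied, from 0 of 24 collagen genes to 1 of 16 fatty acid synthesis genes (6.25%) and 3 of 30 fatty acid oxidation genes (10.0%). Among the 23 cholesterol genes it was found before 1 (4.35%), Hmgcs1. Its promoter (chr13:119690101-119690350, plus strand) is shown with the sterol site at bases 137 to 129 before the start and 3 CCAAT boxes on the opposite strand (ATTGG) in capitals.
Hmgcs1: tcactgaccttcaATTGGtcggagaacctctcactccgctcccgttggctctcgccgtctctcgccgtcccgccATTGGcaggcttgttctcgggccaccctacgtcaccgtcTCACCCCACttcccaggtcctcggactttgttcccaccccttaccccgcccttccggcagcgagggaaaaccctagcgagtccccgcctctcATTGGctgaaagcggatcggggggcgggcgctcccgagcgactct

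Fatty acid synthesis had 16 of 19 members lower and 3 higher, with a median of -0.90. Fasn, the fatty acid synthase, was 1.66-fold lower (1159.5 and 1155 CPM against 1943 and 1901 CPM, adjusted p = 7.15e-10), and Srebf1, the SREBP gene that drives the pathway, 1.58-fold lower (191 and 189.6 CPM against 304 and 296 CPM). Larger falls were seen in Acss2, which makes acetyl-CoA from acetate (3.79-fold lower, 47.4 and 51.5 CPM against 183 and 193 CPM), and in Acsl3, an acyl-CoA synthetase (3.03-fold lower, 66.4 and 60.9 CPM against 193 and 192 CPM). The calls of the members called higher were weak. Acacb (adjusted p = 0.00834) lost its call without AMP replicate 2 and without vehicle replicate 2, Lpin1 (adjusted p = 0.00682) without vehicle replicate 2, and the count of higher members was 0 without vehicle replicate 2 and 1 without AMP replicate 2 or vehicle replicate 1.

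Fatty acid oxidation and PPAR targets were mixed, 12 higher and 10 lower of 38 (median -0.14). The median was -0.048 without AMP replicate 1, -0.075 without AMP replicate 2, -0.071 with total-count scaling and -0.039 with the stricter filter. Cpt1c and Ppard were 2.31-fold higher and 1.66-fold higher. Lpl, lipoprotein lipase, was 3.30-fold lower (51.6 and 52.1 CPM against 167 and 175 CPM, adjusted p = 5.64e-15) and the fatty acid binding protein gene Fabp5 2.90-fold lower (11.7 and 13.2 CPM against 36 and 36.7 CPM). Cpt1a, the gate of mitochondrial fatty acid entry, read 146 and 144 CPM against 135 and 132 CPM (adjusted p = 0.0437, 0.00144 to 0.353 over the alternatives), above 0.05 without either AMP library. Pparg was low and was not called (1.73 and 1.07 CPM against 1.44 and 1.75 CPM, adjusted p = 0.681).

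Ribosomal protein genes were lower with AMP MCndM. Of 82 cytosolic ribosomal protein genes, 73 were called lower and 1 higher, with a median log2 fold change of -0.55. The member called higher was Rps27l, which is known as a p53 target, with 87.0 and 90.0 CPM in the AMP libraries and 43.2 and 48.4 CPM in the vehicle libraries, 1.94-fold higher (log2 fold change 0.96 ± 0.079 SE, adjusted p = 6.18e-10). Rpl5 and Rpl11, which bind MDM2 when ribosome assembly fails, were 1.5-fold lower (216 and 243 CPM against 334 and 357 CPM) and 1.22-fold lower (191 and 195 CPM against 231 and 238 CPM). The largest falls were those of Rpl22l1 (-1.17 ± 0.14) and Rps15a (-1.12 ± 0.068). Ribosomal protein genes have many processed pseudogenes, and how reads with several matches were counted is not given in the sources used here.

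Gene length moved with the change between media. Among protein-coding genes averaging a log2 CPM of 2 or more, taken in 10 bins by exonic length, bin 1 (374 to 2013 bases) had a median log2 fold change of -0.15 with 471 of 1046 genes lower, and bin 8 (6574 to 8026 bases) had a median of 0.0395 with 354 of 1045 lower. Bin 10, the longest genes (10328 to 123179 bases), had a median of -0.06 with 420 of 1046 lower, so the medians did not rise over the whole range. The median exonic length of the ribosomal protein genes was 1754.5 bases, of nuclear oxidative phosphorylation genes 1756, of proteasome genes 2814, of mitosis genes 4934 and of replication-dependent histone genes 536.5. The histone genes, the shortest of these, had a median log2 fold change of 0.84. The oxidative phosphorylation genes, about as long as the ribosomal protein genes, had a median of -0.13, close to the -0.15 of bin 1. The median of the ribosomal protein genes was -0.55. The part of length in these changes was not tested.

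Ribosome biogenesis and RNA polymerase I genes followed in the same direction, 42 of 73 lower and 13 higher, none of them by 2-fold (median -0.23). Polr1a, the largest subunit of RNA polymerase I, was 1.65-fold lower (82.7 and 88.6 CPM against 138 and 144 CPM, adjusted p = 8.25e-12), its partner Polr1b 1.37-fold lower, and the methyltransferase gene Fbl (fibrillarin) 1.5-fold lower (46.8 and 49.2 CPM against 69.3 and 75.6 CPM). Heatr1, a factor of rRNA synthesis and processing, was 1.62-fold lower. Ncl, nucleolin, read 614 and 589.9 CPM against 556 and 596 CPM with overlapping groups (adjusted p = 0.275). Nop14 and Noc4l, assembly factors of the small subunit, were 1.41-fold higher and 1.35-fold higher.

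Proteasome genes showed 26 of 38 lower and 2 higher (median -0.26). Psmb5, a catalytic subunit, was 1.37-fold lower (37.1 and 37.7 CPM against 50.2 and 52.6 CPM). The largest falls were those of Psmb8 (76.7 and 99.6 CPM against 180.1 and 198 CPM) and Psme2 (90.6 and 109 CPM against 202 and 224 CPM), both interferon-inducible parts of the immunoproteasome. Psmd8 was 1.24-fold higher, and Psmc1 read 133 and 129 CPM against 116 and 119 CPM (adjusted p = 0.00995, 1.85e-04 to 0.131 over the alternatives, above 0.05 without AMP replicate 1 and without vehicle replicate 1). The count of higher members was 6 with total-count scaling. Of 27 chaperone genes, 14 were lower and 6 higher. Hspa8, the constitutive HSP70, was 1.49-fold lower (1220.4 and 1262 CPM against 1837 and 1860.2 CPM), the chaperonin gene Hspe1 1.58-fold lower, the inducible Hspa1a 1.43-fold higher (28.2 and 22.7 CPM against 18.3 and 17 CPM) and Hsp90aa1 1.27-fold higher. Hspb1 read 19.8 and 19.2 CPM against 19.5 and 20.7 CPM (adjusted p = 0.789).

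In glycolysis and the hypoxia response, 24 of 37 were lower and 5 higher (median -0.32). Hif1a, the hypoxia factor, was 1.15-fold lower (191 and 194 CPM against 224 and 221 CPM) and its target Vegfa 1.25-fold lower (118 and 119.6 CPM against 143 and 154 CPM). Adm (adrenomedullin) and P4ha2 (a collagen prolyl hydroxylase) were 2.49-fold lower and 1.57-fold lower. Slc16a1, a lactate transporter, and Gpi1, a glycolytic isomerase, were 1.51-fold higher and 1.45-fold higher. Ldha, lactate dehydrogenase, was 1.18-fold lower (adjusted p = 0.0118, and 5.90e-07 to 0.066 over the alternatives, above 0.05 without either AMP library and without vehicle replicate 2).

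Nuclear genes of oxidative phosphorylation had 33 of 75 lower and 8 higher, none by 2-fold (median -0.13, and -0.061 with total-count scaling). The count of higher members was 4 without AMP replicate 1 or vehicle replicate 2 and 3 without vehicle replicate 1. Ndufs1, a core subunit of complex I, was 1.27-fold lower (52.9 and 50.9 CPM against 65.2 and 66.2 CPM), Sdhc of complex II 1.66-fold lower and Ndufs8 1.5-fold lower. Ndufb10 and Ndufa11, also of complex I, were 1.32-fold higher and 1.22-fold higher. Atp5a1, of ATP synthase, read 447 and 430.4 CPM against 436 and 435 CPM (adjusted p = 0.847).

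The 13 mitochondrially encoded genes gave 3 higher and 4 lower calls, and no call of a higher member held without AMP replicate 1, the library with the largest mitochondrial share, or without vehicle replicate 2. Without AMP replicate 2 there were 5 higher and 2 lower. mt-Co1 read 9607 and 8286 CPM against 7863 and 7306 CPM, mt-Nd1 4130.1 and 3295 CPM against 3156 and 2789.8 CPM and mt-Nd5 2688 and 2212 CPM against 2090.3 and 1985 CPM, with AMP replicate 1 the highest in each. mt-Cytb read 3134 and 2788 CPM against 3146 and 2855 CPM and overlapped. mt-Co3 (10.1 and 6.47 CPM against 12.6 and 16.6 CPM) and mt-Nd6 (69.7 and 54.5 CPM against 91.5 and 117 CPM) were called lower and lost the call without AMP replicate 2. The counts of mt-Co3 lay far below those of mt-Co1 and mt-Cytb. How reads with several matches were counted is not given in the sources used here, so its low count may not give its level.

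Stress programs did not move as one. Of 44 genes of the ATF4 and integrated stress response, 31 were lower and 7 higher (median -0.30). Atf4 was 1.27-fold lower (562 and 526 CPM against 671 and 706 CPM, adjusted p = 9.69e-05), as was its target Asns, asparagine synthetase (189 and 209 CPM against 241 and 254 CPM). The amino acid genes Pycr1, of proline synthesis, and Slc6a9, a glycine transporter, were 3.80-fold lower and 3.15-fold lower. The exons of another gene overlap 27.8% of Slc6a9. Against them, Ddit3, the stress factor CHOP, read 296 and 274 CPM in the AMP libraries and 134 and 145 CPM in the vehicle libraries, 2.04-fold higher (log2 fold change 1.03 ± 0.060 SE, adjusted p = 4.30e-13). Atf3, also an immediate early gene, was 4.10-fold higher (146 and 129.6 CPM against 30.7 and 37.0 CPM), and Gdf15, a stress cytokine and p53 target, 3.76-fold higher (135 and 144 CPM against 36.6 and 37.7 CPM).

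In the unfolded protein response of the endoplasmic reticulum, 19 of 33 were lower and 6 higher. Xbp1, a factor of this response, was 2.5-fold lower (27.5 and 32.6 CPM against 72.2 and 79.2 CPM, adjusted p = 7.91e-14), and Sec61b, of the translocation channel, 2.48-fold lower (17.3 and 19 CPM against 42.4 and 48.0 CPM). The sensor genes Ern1 and Atf6 were 1.57-fold higher and 1.39-fold higher. Hspa5, the chaperone BiP, read 909.6 and 865 CPM against 946 and 1022 CPM (adjusted p = 0.0194, 3.91e-04 to 0.216 over the alternatives), a call lost in the fit of the 4 libraries alone among others.

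NRF2 and antioxidant genes gave 21 lower and 9 higher calls of 40. Nfe2l2, which encodes NRF2, was 1.18-fold higher (192 and 191 CPM against 163 and 161 CPM) and its target Hmox1, heme oxygenase, 1.42-fold higher (201 and 194 CPM against 141 and 138 CPM). The glutathione genes Gss and Gclc were 1.98-fold higher and 1.83-fold higher. Nqo1, a quinone reductase, read 39.5 and 35.0 CPM against 46.7 and 42.1 CPM (adjusted p = 0.0208, 2.85e-04 to 0.223 over the alternatives), above 0.05 without AMP replicate 2 and without vehicle replicate 1. Me1, malic enzyme, and Mgst1, a glutathione transferase, were 2.23-fold lower and 2.04-fold lower. Among 51 lysosome and autophagy genes, 20 were higher and 14 lower. Ulk1, the kinase that starts autophagy, was 2.17-fold higher (242 and 225 CPM against 110.1 and 105 CPM, adjusted p = 1.51e-14) and the sialidase gene Neu1 1.91-fold higher. The protease genes Ctsd and Ctso were 1.14-fold higher and 1.85-fold lower, and Naglu, a glycosidase gene, 1.48-fold lower. Sqstm1, the autophagy receptor p62, read 564 and 595 CPM against 632 and 655 CPM (adjusted p = 0.0107, 4.36e-04 to 0.138 over the alternatives), above 0.05 without AMP replicate 1 and without vehicle replicate 2.

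Collagens are the main structural proteins that fibroblasts secrete. Of 29 collagen genes tested, 18 were called lower, 12 of them at least 2-fold, and 2 higher (median -0.83). Col1a1, the main fibrillar collagen chain, read 1942 and 2094 CPM in the AMP libraries and 4140.1 and 3897 CPM in the vehicle libraries. It was 1.99-fold lower (log2 fold change -0.99 ± 0.052 SE, adjusted p = 5.89e-14). Its partner Col1a2 was 3.17-fold lower (309 and 354 CPM against 1061 and 1040.3 CPM) and Col3a1, of collagen III, 5.69-fold lower (313 and 335 CPM against 1875 and 1809.8 CPM, adjusted p = 3.14e-18). Col11a1, which seeds fibrils, fell most, 6.18-fold, from 414 and 409 to 62.5 and 70.3 CPM. The basement membrane chain Col4a1 was 1.78-fold lower (611 and 664 CPM against 1145 and 1118 CPM). Col7a1, of anchoring fibrils, was 1.69-fold higher (14.8 and 14 CPM against 9.0 and 7.85 CPM). Col23a1, named after its value was seen, was the other member called higher (0.78 ± 0.32), and with each of several alternatives only 1 collagen was called higher.

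Among matrix glycoproteins and proteoglycans, 34 of 52 were lower, 17 of them at least 2-fold, and 8 higher (median -0.75). Fn1, fibronectin, read 2876 and 3224 CPM in the AMP libraries and 5077 and 5228 CPM in the vehicle libraries, 1.69-fold lower (log2 fold change -0.76 ± 0.057 SE). Postn (periostin) was 1.67-fold lower (47.7 and 43.6 CPM against 80.2 and 71.2 CPM) and Tnc (tenascin C) 2.51-fold lower (62.9 and 73.4 CPM against 165 and 178 CPM). The furthest falls named in this list were those of Ogn and Aspn, genes of small leucine-rich proteoglycans. Ogn was 11.9-fold lower (8.44 and 7.26 CPM against 91.9 and 92.9 CPM, adjusted p = 2.16e-13) and Aspn 23.1-fold lower (0.973 and 0.536 CPM against 19.2 and 13.2 CPM, adjusted p = 3.67e-06), the largest fall of all genes that met the rule for named genes. Wisp2 was 7.79-fold lower (4.06 and 3.56 CPM against 28.9 and 29.9 CPM). The matricellular genes Ctgf and Cyr61, known targets of the coactivators YAP and TAZ, went the other way, 1.48-fold higher (161 and 166 CPM against 109 and 111 CPM) and 1.5-fold higher (498 and 472 CPM against 329 and 319.7 CPM), as did Spp1, osteopontin (1.82-fold higher, 228 and 211 CPM against 126 and 115 CPM).

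Enzymes of the matrix gave 26 lower and 11 higher calls of 44 (median -0.43). Lox, which cross-links collagen, read 144 and 177 CPM against 590.4 and 591 CPM, 3.67-fold lower (adjusted p = 5.13e-15). The aggrecanase-type protease genes Adamts1 and Adamts5 were 4.97-fold lower (66.9 and 74.2 CPM against 347 and 356 CPM) and 4.33-fold lower (118 and 129 CPM against 523 and 549.9 CPM). Mmp2, a gelatinase, was 2.14-fold lower (11 and 10.5 CPM against 26.8 and 18.7 CPM). Timp1, an inhibitor of metalloproteinases, was 1.93-fold higher (123 and 119 CPM against 60.2 and 65.0 CPM), and the membrane-bound metalloproteinase genes Mmp15 and Mmp17 were 8.59-fold higher (42.9 and 46.9 CPM against 5.12 and 5.40 CPM) and 3.16-fold higher.

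In the myofibroblast and contractile list, 16 of 40 were lower and 11 higher (median -0.08, -0.016 without AMP replicate 1 and -0.0085 with total-count scaling). Acta2, smooth muscle actin, the usual mark of a myofibroblast, was 3.07-fold lower (24.6 and 24.3 CPM against 77.2 and 72.7 CPM, adjusted p = 8.09e-15), and Cdh11, cadherin 11, 2.38-fold lower. Ankrd1 was 2.28-fold higher (506 and 451 CPM against 207 and 214 CPM) and Mylk 2.27-fold higher. Tagln and Cnn1, other contractile markers, lay under 1 CPM in all 4 libraries and were not called, and 62.4% of the annotated length of Tagln overlaps another gene, so its low count may not give its level.

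Ligands and regulators of the TGF-beta family fell more often than they rose, 23 against 6 of 48 (median -0.22). Bmp4, a ligand, was 5.39-fold lower (12.7 and 12 CPM against 64.0 and 68.6 CPM, adjusted p = 3.32e-17) and Id3, a direct target of BMP signalling, 5.77-fold lower (10.6 and 9.01 CPM against 56.5 and 55.3 CPM). The ligands Tgfb1 and Tgfb2 differed in direction, 1.26-fold higher (118 and 120.5 CPM against 98.2 and 90.8 CPM) and 2.06-fold lower (14.5 and 14.5 CPM against 29.0 and 30.9 CPM). Inhba, the activin A chain, was 1.5-fold higher. Smad7, an inhibitor that TGF-beta induces, read 33.1 and 33.2 CPM against 32.1 and 31.5 CPM and was not called (adjusted p = 0.478). Chrd, a BMP antagonist, read 5.81 and 4.30 CPM against 3.69 and 3.24 CPM (adjusted p = 0.0315, 0.0101 to 0.296 over the alternatives), above 0.05 without AMP replicate 1 and without either vehicle library.

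Of 56 Wnt, Hedgehog, Notch and Hippo genes, 28 were lower, 16 of them at least 2-fold, and 11 higher (median -0.31). Gas1, a Hedgehog coreceptor first described as specific to growth arrest, read 30.3 and 30.7 CPM in the AMP libraries and 342 and 255 CPM in the vehicle libraries, 9.80-fold lower (log2 fold change -3.29 ± 0.29 SE, adjusted p = 2.41e-06). Fzd2, a Wnt receptor, was 4.87-fold lower (21.8 and 26.1 CPM against 119.9 and 115 CPM), while the ligands Wnt9a and Wnt5a were 8.86-fold higher (31.0 and 32.8 CPM against 3.56 and 3.67 CPM) and 2.36-fold higher (20.2 and 20.4 CPM against 8.19 and 9.08 CPM). Hes1, a Notch target, was 2.10-fold lower (13.8 and 10.8 CPM against 26.2 and 24.7 CPM). Axin2, a target of Wnt signalling through beta-catenin, read 1.46 and 1.31 CPM against 1.81 and 2.04 CPM and was not called (adjusted p = 0.204).

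Growth factors and their receptors gave 26 lower calls of 51, 18 of them at least 2-fold, and 10 higher (median -0.52). Pdgfra, the PDGF receptor that marks resident fibroblasts, read 3.5 and 3.30 CPM in the AMP libraries and 27.9 and 22.6 CPM in the vehicle libraries. It was 7.51-fold lower (log2 fold change -2.91 ± 0.14 SE, adjusted p = 1.05e-14). Igf1 was 4.62-fold lower (3.55 and 4.25 CPM against 17.6 and 19 CPM) and Fgf2 2.58-fold lower (1.17 and 1.54 CPM against 3.97 and 3.07 CPM). Angptl2 and Hbegf, an EGF receptor ligand, were 2.41-fold higher and 2.01-fold higher (51.0 and 42.3 CPM against 22.5 and 23.8 CPM).

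Interferon-stimulated genes were lower more often than higher, 23 against 8 of 53 (median -0.21). Here the AMP replicates differed, and the median was -0.051 without AMP replicate 1 and -0.36 without AMP replicate 2. Mx1, an antiviral GTPase gene, read 12 and 27.9 CPM in the AMP libraries and 70.2 and 82.3 CPM in the vehicle libraries (log2 fold change -1.88 ± 0.37 SE, adjusted p = 0.00129), and its call was lost in the fit of the 4 libraries alone. Isg15 read 311 and 413 CPM against 568 and 599 CPM and Ifit1 351 and 429 CPM against 625 and 636 CPM, with AMP replicate 1 the lowest library in both. They were 1.61-fold lower and 1.61-fold lower. Bst2, tetherin, was 2.30-fold lower (490.5 and 559 CPM against 1187 and 1230.2 CPM, adjusted p = 7.37e-08). Irf9, part of the factor that turns these genes on, was 1.46-fold higher (356 and 352 CPM against 244 and 242 CPM). Oas2 was 1.53-fold higher (422 and 605 CPM against 328 and 346 CPM, adjusted p = 0.0174, 7.38e-28 to 0.183 over the alternatives), a call lost without AMP replicate 2 and without either vehicle library.

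Inflammatory cytokine and chemokine genes gave 33.9% higher and 27.1% lower, against 25.3% and 27.5% of all genes, with 20 higher and 16 lower of 59 (median 0.10, 0.060 without AMP replicate 2 and 0.16 without vehicle replicate 2). Lcn2, lipocalin 2, read 62.0 and 79.6 CPM against 7.80 and 8.62 CPM, 8.72-fold higher (adjusted p = 7.89e-13), and Lif, a cytokine of the IL-6 family, 34.0 and 39.5 CPM against 8.78 and 9.99 CPM, 3.96-fold higher. Cxcl12, a chemokine that retains leukocytes and stem cells, was 2.93-fold lower (298 and 327 CPM against 941 and 891 CPM, adjusted p = 1.27e-16). Il6 (8.37 and 8.72 CPM against 8.64 and 9.61 CPM), Il33 (3.36 and 3.20 CPM against 3.18 and 3.27 CPM), Cxcl1 (105 and 114 CPM against 126 and 124 CPM) and Ccl2 (684 and 739 CPM against 762 and 683 CPM) were not called, with adjusted p = 0.634, 0.929, 0.15 and 0.88.

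The labelled cell type was checked against markers. The summed level of 17 fibroblast markers was 4470 and 4852 CPM with AMP MCndM and 10460 and 10090 CPM with vehicle, and none of them was at 0 in any library. Of 15 tested, 10 were called lower and 2, Pdpn (1.70-fold higher) and Dcn (1.31-fold higher), higher. Thy1 and Mfap5, both named after their values were seen, were below the filter, with 26 and 94 counts summed over the 20 CF libraries. Lum, another usual marker named after its value was seen, lay under 0.4 CPM in every library. Summed levels of markers of other cells lay below those of the fibroblast markers in every library. The 15 endothelial markers summed to 693 and 741 CPM against 700.1 and 679.8 CPM. Of these, 9 were tested, Flt1 and Ptprb were called lower (-0.44 ± 0.13 and -1.0 ± 0.32) and Kdr higher (1.15 ± 0.33), and Ptprb and Kdr were named after their values were seen. The call of Flt1 was lost without AMP replicate 1 (adjusted p 5.27e-05 to 0.077 over the alternatives). The 17 cardiomyocyte markers summed to 392 and 387 CPM against 428 and 435 CPM, and of 16 tested 6 were called lower, 1 higher and 9 neither. Tnnt2 (2.31 and 2.20 CPM against 6.59 and 5.04 CPM) and Tnni3 (2.80 and 2.62 CPM against 5.0 and 5.09 CPM) were among the lower members. The member called higher was Actn2 (0.96 ± 0.33 on the log2 scale), an actinin gene, named after its value was seen. How far reads of rat RNA carried in the medium could map to mouse genes was not tested.

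The 15 macrophage and leukocyte markers summed to 59.4 and 62.4 CPM with AMP MCndM against 18.5 and 16.1 CPM with vehicle, and 2 to 5 of them were at 0 in 3 of the libraries and 1 in vehicle replicate 1. Only 5 passed the filter on low counts. Cd68, which encodes a lysosomal glycoprotein of macrophages, made up most of the sum in the AMP libraries but not in the vehicle libraries, with 36.1 and 38.1 CPM against 2.06 and 1.92 CPM, 18.4-fold higher (log2 fold change 4.21 ± 0.17 SE, adjusted p = 5.38e-14). Csf1r (9.68 and 7.90 CPM against 0.867 and 0.841 CPM) and Laptm5 (0.438 and 0.471 CPM against 0.0876 and 0.144 CPM) were also higher, and both were named after their values were seen. The leukocyte marker Ptprc and the macrophage markers Adgre1, C1qa, C1qb, C1qc, Itgam and Tyrobp, named likewise, were below the filter. The 14 smooth muscle and pericyte markers summed to 579 and 590 CPM with AMP MCndM against 1079 and 985 CPM with vehicle, and 0 to 2 of them were at 0 in each library. Of 11 tested, 4 were called higher, Smtn (2.23-fold higher), Notch3 (1.47-fold higher), Mcam (0.27 ± 0.070 on the log2 scale) and Rgs5 (1.67 ± 0.38), and 2 lower, Acta2 (3.07-fold lower) and Pdgfrb (3.35-fold lower, 221 and 225 CPM against 789 and 706 CPM). Mcam and Rgs5 were named after their values were seen. The part of such cells in the results was not tested.

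Over all genes, the 8 largest rises among those averaging a log2 CPM of 2 or more whose libraries did not overlap between media were Robo3, Ces2f, Fos, Svop, Ces2e, Cd68, St14 and Anxa8. Robo3, a receptor of axon guidance, read 55.6 and 47.5 CPM in the AMP libraries and 0.666 and 0.673 CPM in the vehicle libraries. It was 76.8-fold higher (log2 fold change 6.26 ± 0.21 SE, adjusted p = 5.31e-15). The carboxylesterase genes Ces2f and Ces2e, neighbours in 1 cluster on chromosome 8, were 34.2-fold higher (25.7 and 35.9 CPM against 0.911 and 0.889 CPM) and 21.3-fold higher (94.2 and 106 CPM against 4.05 and 5.93 CPM). As near copies they may share reads. Svop, a transporter-like gene of synaptic vesicles, rose from 0.955 and 0.913 to 22.1 and 18.4 CPM, St14, the membrane protease matriptase, from 0.841 and 0.937 to 14.1 and 15.3 CPM and Anxa8, an annexin, from 0.858 and 0.961 to 16.9 and 12.7 CPM. In Robo3, Ces2f, Svop, St14 and Anxa8 both vehicle libraries lay under 1 CPM.

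The 8 largest falls were those of Aspn, Ogn, Gas1, Kif26b, AC153369.1, Fibin, Wisp2 and Scn7a. Kif26b, a kinesin family gene, read 6.25 and 9.39 CPM in the AMP libraries and 77.8 and 77.1 CPM in the vehicle libraries, 9.61-fold lower (log2 fold change -3.26 ± 0.095 SE, adjusted p = 5.81e-18). Fibin, which encodes a secreted protein, fell from 37.7 and 38.8 to 4.01 and 5.34 CPM, the sodium channel gene Scn7a from 11.8 and 10.9 to 1.39 and 1.53 CPM and the gene model AC153369.1 from 10.7 and 10.7 to 1.26 and 1.22 CPM. None of the 16 calls was lost under any alternative, but these genes were picked for the size of their changes in these same libraries.

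**Figure D4:**
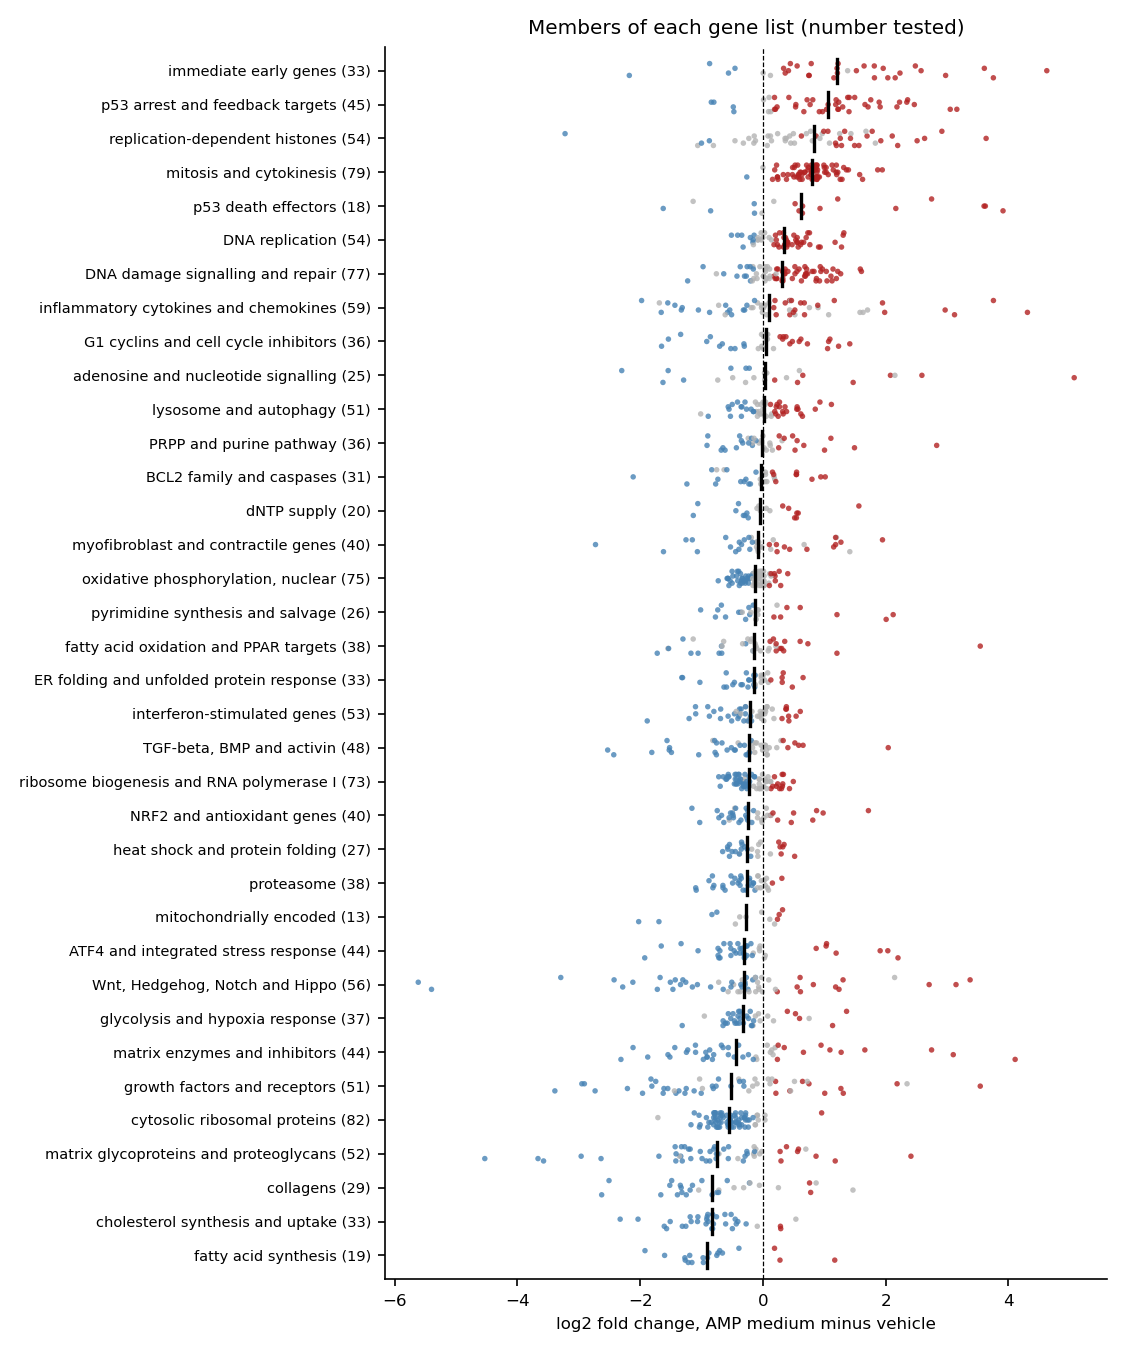
Log2 fold change of AMP over vehicle MCndM (x axis) for each tested member (points) of 36 gene lists, ordered by the median (black bar), red where called higher, blue where called lower and grey where not called; the dashed line is the median of all genes tested, and numbers in brackets give the members tested. Immediate early genes (1.22) and p53 arrest targets (1.06) have the highest medians, and fatty acid synthesis (-0.90), cholesterol (-0.83) and collagens (-0.83) lie at the low end, where collagens were the lowest of these with the stricter filter, without AMP replicate 2 and in the fit of the 4 libraries alone.

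Read against the background, the lists differed in how one-sided they were. All genes tested gave 25.3% higher and 27.5% lower. Mitosis genes gave 97.5% higher and 1.27% lower, p53 arrest targets 82.2% and 8.89%, and immediate early genes 78.8% and 12.1%. On the other side, cytosolic ribosomal protein genes gave 1.22% higher and 89.0% lower, cholesterol genes 6.06% and 87.9%, and fatty acid synthesis 15.8% and 84.2%. The adenosine list, at 28.0% and 28.0%, lay near the background in both directions.

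**Figure D5:**
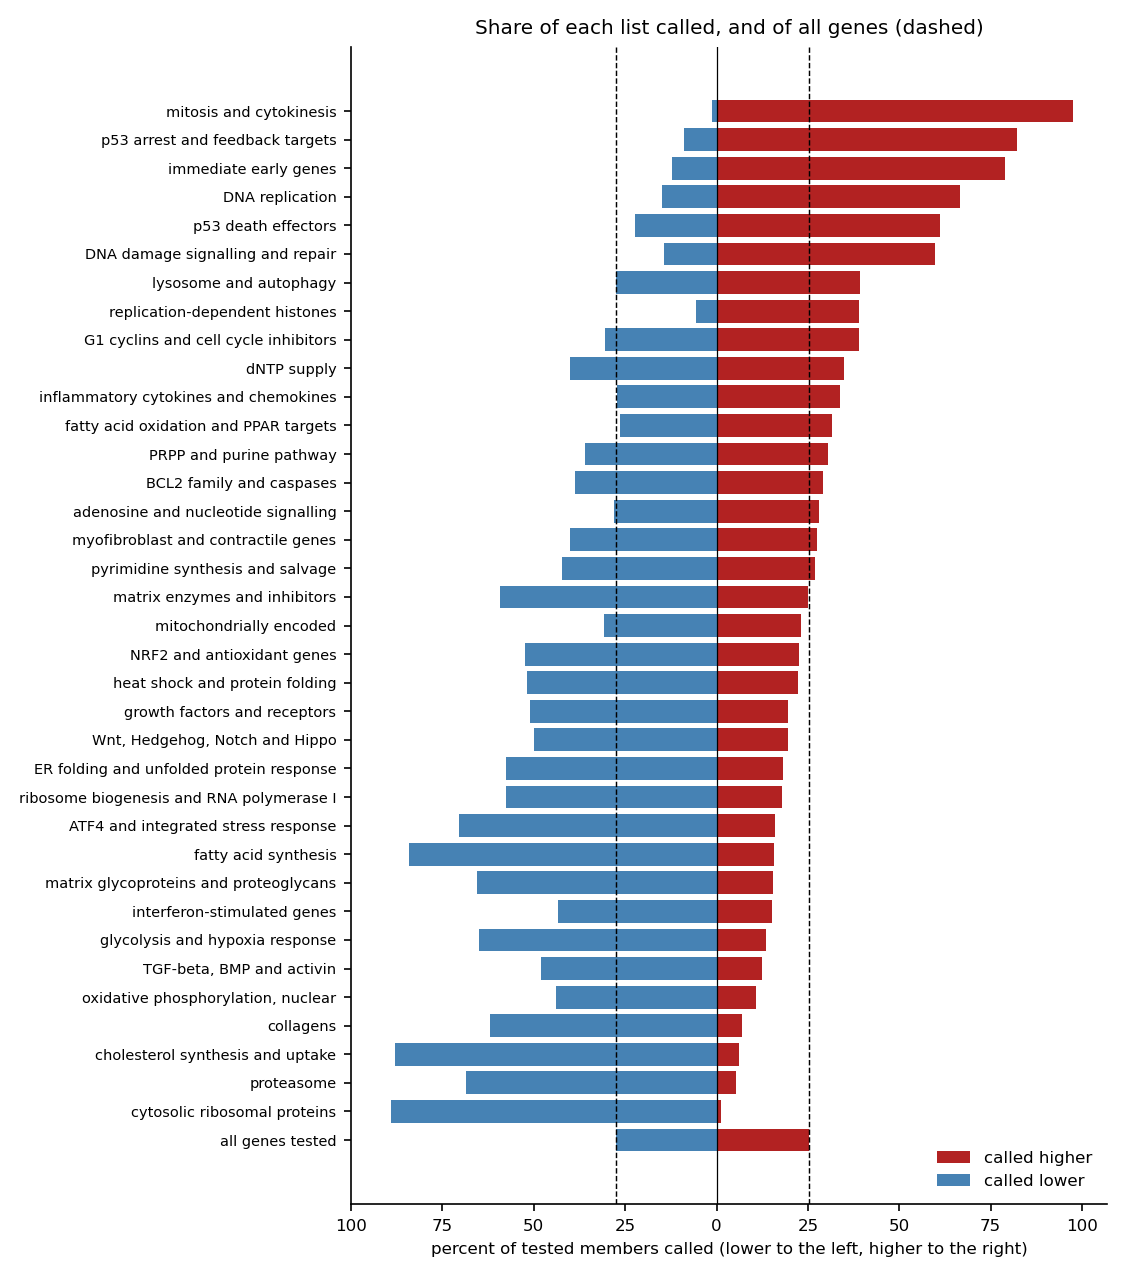
Share of the tested members of each list called higher (red bars, to the right) and lower (blue bars, to the left), in percent of the members tested, with all genes tested in the bottom row and as dashed lines (25.3% higher and 27.5% lower). Mitosis (97.5% higher) and cytosolic ribosomal proteins (89.0% lower) are the most one-sided lists in the plot.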

How the data were processed

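Whole-number counts per gene symbol, which the authors deposited as raw counts with 1 column per library, were used for all 20 CF libraries, and every column was used. The submitters' processing notes name STAR 2.5.3a and the build mm10. The counter, the annotation, the strand setting and the RNA selection are not given in the sources used here. Each library was placed in its group by its label. The other tables of the series, from rat myocytes and single cells, were not used here.

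Genes were filtered with filterByExpr, scaled by TMM and fitted by edgeR 4.0.16 in R 4.3.3 with 1 mean per medium and time (10 groups, 10 residual degrees of freedom, biological coefficient of variation 0.059). Robust quasi-likelihood tests of AMP against vehicle at 24 h were adjusted by Benjamini-Hochberg over the 17879 genes tested. An exact permutation test of 2 against 2 libraries was not used for single genes, as it cannot reach 0.05. Total counts in the 20 libraries had a median of 43133824.5, and the SE of each fold change carries the precision this depth and the replicates gave. Per gene, CPM used TMM-scaled library sizes, and log2 fold changes and SEs came from the fit.

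The 41 gene lists (1585 genes tested) were typed from general knowledge, and the comparison, lists and key genes were chosen with earlier results of these data known. Genes named were the key genes of each list whatever their value, up to 2 largest rises and 2 largest falls per list among called members averaging a log2 CPM of 2 or more whose libraries did not overlap between media, and the 8 largest rises and 8 largest falls over all genes under the same conditions, 261 genes in all. Others are marked as named after their values were seen, and the results of some of these genes are not reported here. Lists were described by counts and medians beside those of all genes tested, with no set test. Exonic lengths and overlaps came from GENCODE release M21, which held 96.5% of the genes tested. Promoters came from the RefSeq table of GRCm38.p6 and were searched for the motifs the report spells out, on both strands, of which the sterol site, the CArG box and the cAMP core were added after the data were seen.

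On counts simulated for 16945 genes from these means and library sizes, the test called 65 of 67 genes changed 1.5-fold (97%), all 67 changed 2-fold and all 66 changed 4-fold, and 12 of 16745 other genes. The changed genes were drawn only from those with enough counts in the shallowest library, and every gene and group was given the same spread. These shares therefore do not cover low genes or the wider spread between the AMP libraries at 24 h. The alternatives were DESeq2 1.42.0, other scalings, other filters on low counts, other sets of libraries, the replicate number as a block, leaving out each library, and, added after seeing the data, thinning the 4 libraries to 39808854 counts.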

Additional observations from a re-analysis of the deposited data

How the results depend on the processing

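Over 14 alternatives, the count of genes called higher ran from 3596 to 5217 and of genes called lower from 4139 to 5323, and of genes at least 2-fold higher from 899 to 1514 and at least 2-fold lower from 740 to 1350. Leaving out 1 library in turn gave 3596 to 4337 higher and 4212 to 4843 lower, and 1062 to 1488 and 951 to 1350 at least 2-fold. The stricter filter, a CPM of at least 1, tested fewer genes and counted 899 at least 2-fold higher. Scaling by total counts moved the median of all genes to 0.065 and gave 5217 higher and 4139 lower. DESeq2 called 4626 higher and 4670 lower. From 81.2% (without vehicle replicate 1) to 99.3% (replicate block) of the 9437 calls were also made in the same direction, and 8 turned in sign without AMP replicate 2 and 1 without AMP replicate 1. Of 241 named genes called, 220 held call and direction under every alternative and none turned in sign. Those beyond the key genes were picked for large, called and not overlapping changes in these same libraries. That selection favours holding, so the count is no independent check.

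Deviations of same-numbered libraries from their group means correlated at -0.112 to 0.277 over 45 pairs of groups (median 0.0125, AMP with vehicle at 24 h -0.032). These values show no strong pairing by replicate number. With 2 libraries a group they cannot settle whether same-numbered libraries were made together, and the labels do not say. With the replicate block 4554 genes were called higher and 4968 lower, 1379 and 1108 of them at least 2-fold. Replicates differed beyond counting noise in every group, with a chi-square per degree of freedom of 37.0 between the AMP libraries at 24 h and 6.34 to 12.8 in the other groups, so none was counted as 1 library deposited under 2 names. Thinning to 1 depth gave 4434 higher and 4791 lower.

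Several genes not called changed the sign of their log2 fold change, and the cause was not tested. With total-count scaling the values were 0.030 (Tk1), 0.052 (mt-Cytb), 0.034 (Hspb1) and 0.049 (Ccl2), and with the stricter filter 0.012 (mt-Cytb) and 0.0075 (Ccl2). mt-Cytb read 0.0025 with DESeq2 and 0.0024 with RLE factors. With no filter on low counts they were -0.0077 (Bak1), -0.022 (Ppat), -0.034 (Atr), -0.029 (Atp5a1) and -0.016 (Il33). Leaving out 1 library in turn gave -0.045 to 0.11 for Bak1, -0.045 to 0.081 for Ppat, -0.28 to 0.68 for Hist1h4h, -0.21 to 0.0095 for Atm, -0.062 to 0.053 for Atr, -0.55 to 0.13 for Pparg, -0.014 to 0.039 for Atp5a1, -0.10 to 0.062 for mt-Cytb, -0.083 to 0.58 for Tagln, -0.0055 to 0.060 for Il33 and -0.11 to 0.049 for Ccl2. Of 1148 counts of called members in lists under the alternatives, 41 differed from the main count by over 1.5 times. In low genes, depth limits what can be seen, and genes below the filter are not described as unchanged.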
